A study of Mus musculus with 112 samples.

Results

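Microglia, the resident macrophages of the brain, were followed here through 9 genes that mark them or serve their main functions: Cx3cr1, P2ry12, Tmem119, Csf1r, Aif1, Trem2, Tyrobp, Itgam and C1qa. They were chosen by name, as rows whose annotation gave exactly 1 gene symbol, with the probe set of highest mean signal standing for a gene. Each of the 9 had 1 such probe set, and together they are 9 of the 19938 genes tested. The tissue was the cerebral cortex of 112 male mice, hybridised 1 mouse to 1 array, and all values below are log2 array signals. A signal cannot be set against that of another gene, because probe sets differ in how well they hybridise.

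The mice belonged to 7 strains, with 8 mice on calorie restriction (CR) and 8 on the control diet in each: Balbc/J, DBA/2J, 129S1/SvImJ, CBA/J, the inbred parents C3H/HeJ and C57BL6/J, and their hybrid B6C3F1/J. All arrived at 6 weeks of age, ate 84 kcal per week in single cages until 8 weeks, then began their diets, and were sampled at 22 weeks after a night without food, so that both diets were measured in fasted mice. By the study's methods food was not equal across strains, since Balbc/J mice were given more on both diets, and in C57BL6/J and 129S1/SvImJ the CR ration was cut again partway. The comparisons asked whether CR, or strain, was accompanied by another level of the microglial genes.

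Microglia depend on the receptor Csf1r, whose ligands Csf1 and Il34 keep them alive, and they sense neurons and injury through the fractalkine receptor Cx3cr1 and the purine receptor P2ry12. Trem2 binds lipids and debris at the surface and signals through the adaptor Tyrobp, which also serves other receptors. Itgam is a chain of a complement receptor of myeloid cells, C1qa is a chain of C1q, the molecule that starts the classical complement pathway, Aif1 (also called Iba1) is a calcium-binding protein of the cytoskeleton and the usual stain for these cells, and Tmem119 is a surface protein that sets microglia apart from most other macrophages. Most of these genes are also used by macrophages at the borders of the brain and, for Csf1r, Aif1, Trem2, Tyrobp, Itgam and C1qa, by other macrophages of the body.

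The upstream sequences of Aif1, Trem2 and Itgam are shown because Aif1 had the widest strain difference and Trem2 the lowest p-value for CR, and because Trem2 and Itgam hold the core of the site bound by PU.1, the transcription factor needed to form microglia and other myeloid cells. RefSeq promoter entries (GRCm38.p6, a genome of C57BL/6J mice) matched 5 of the 9 genes. The letters GAGGAA were searched on both strands in the 250 bases before the start site. They were present in 3 of the 5 (Aif1, Trem2 and Itgam) and in 23.3% of all 32851 promoter entries. For Aif1 only the 219 bases outside the annotated gene are printed, and its match lies inside the gene. Capitals mark the matches, GAGGAA or its complement TTCCTC, which are a description of these letters and not evidence of binding.
Aif1, chr17:35176084-35176302, minus strand: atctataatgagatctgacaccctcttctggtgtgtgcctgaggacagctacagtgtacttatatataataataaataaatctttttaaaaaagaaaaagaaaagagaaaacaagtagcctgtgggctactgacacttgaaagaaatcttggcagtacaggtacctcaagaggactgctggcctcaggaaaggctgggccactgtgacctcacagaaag
Trem2, chr17:48346151-48346400, plus strand: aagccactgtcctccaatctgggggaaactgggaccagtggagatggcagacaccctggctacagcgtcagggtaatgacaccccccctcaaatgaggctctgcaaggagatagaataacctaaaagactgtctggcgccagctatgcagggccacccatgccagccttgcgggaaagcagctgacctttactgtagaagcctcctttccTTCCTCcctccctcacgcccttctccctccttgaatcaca
Itgam, chr7:128062390-128062639, plus strand: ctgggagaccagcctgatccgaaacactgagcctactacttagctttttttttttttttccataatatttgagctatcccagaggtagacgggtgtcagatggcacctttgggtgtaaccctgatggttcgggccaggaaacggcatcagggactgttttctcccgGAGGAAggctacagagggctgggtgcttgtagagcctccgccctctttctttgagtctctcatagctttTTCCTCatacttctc
The gene for PU.1, Spi1, gave -0.045 ± 0.024 (SE, log2) for CR minus control across strains, which did not pass the test.

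Before the comparisons, 4 arrays have to be set apart. On replicate 6 of the C57BL6/J control group and replicate 8 of the B6C3F1/J control group, a list of 12 cerebellar genes averaged 4.00 and 3.96 log2 units above the other mice of their groups, and a list of excitatory neuron genes of the cortex 2.11 and 1.83 below. The same genes lay 1.52 above the group on replicate 8 of DBA/2J control mice and 1.19 above it on replicate 6 of CBA/J CR mice. All 9 microglial genes were lower on both of the first arrays, with a median of -0.71 in C57BL6/J and -0.64 in B6C3F1/J, and P2ry12 on the C57BL6/J array stood at -1.54 from the mean of the others. Since both belong to control groups, they lower the control means of these strains, and the tests for CR, strain and the hybrid were made with all arrays and again without the 4. The fit uses 1 spread per gene for all groups, so these arrays also widen the standard errors in the other strains. Pairs of strains were compared with all arrays only.

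**Figure D1:**
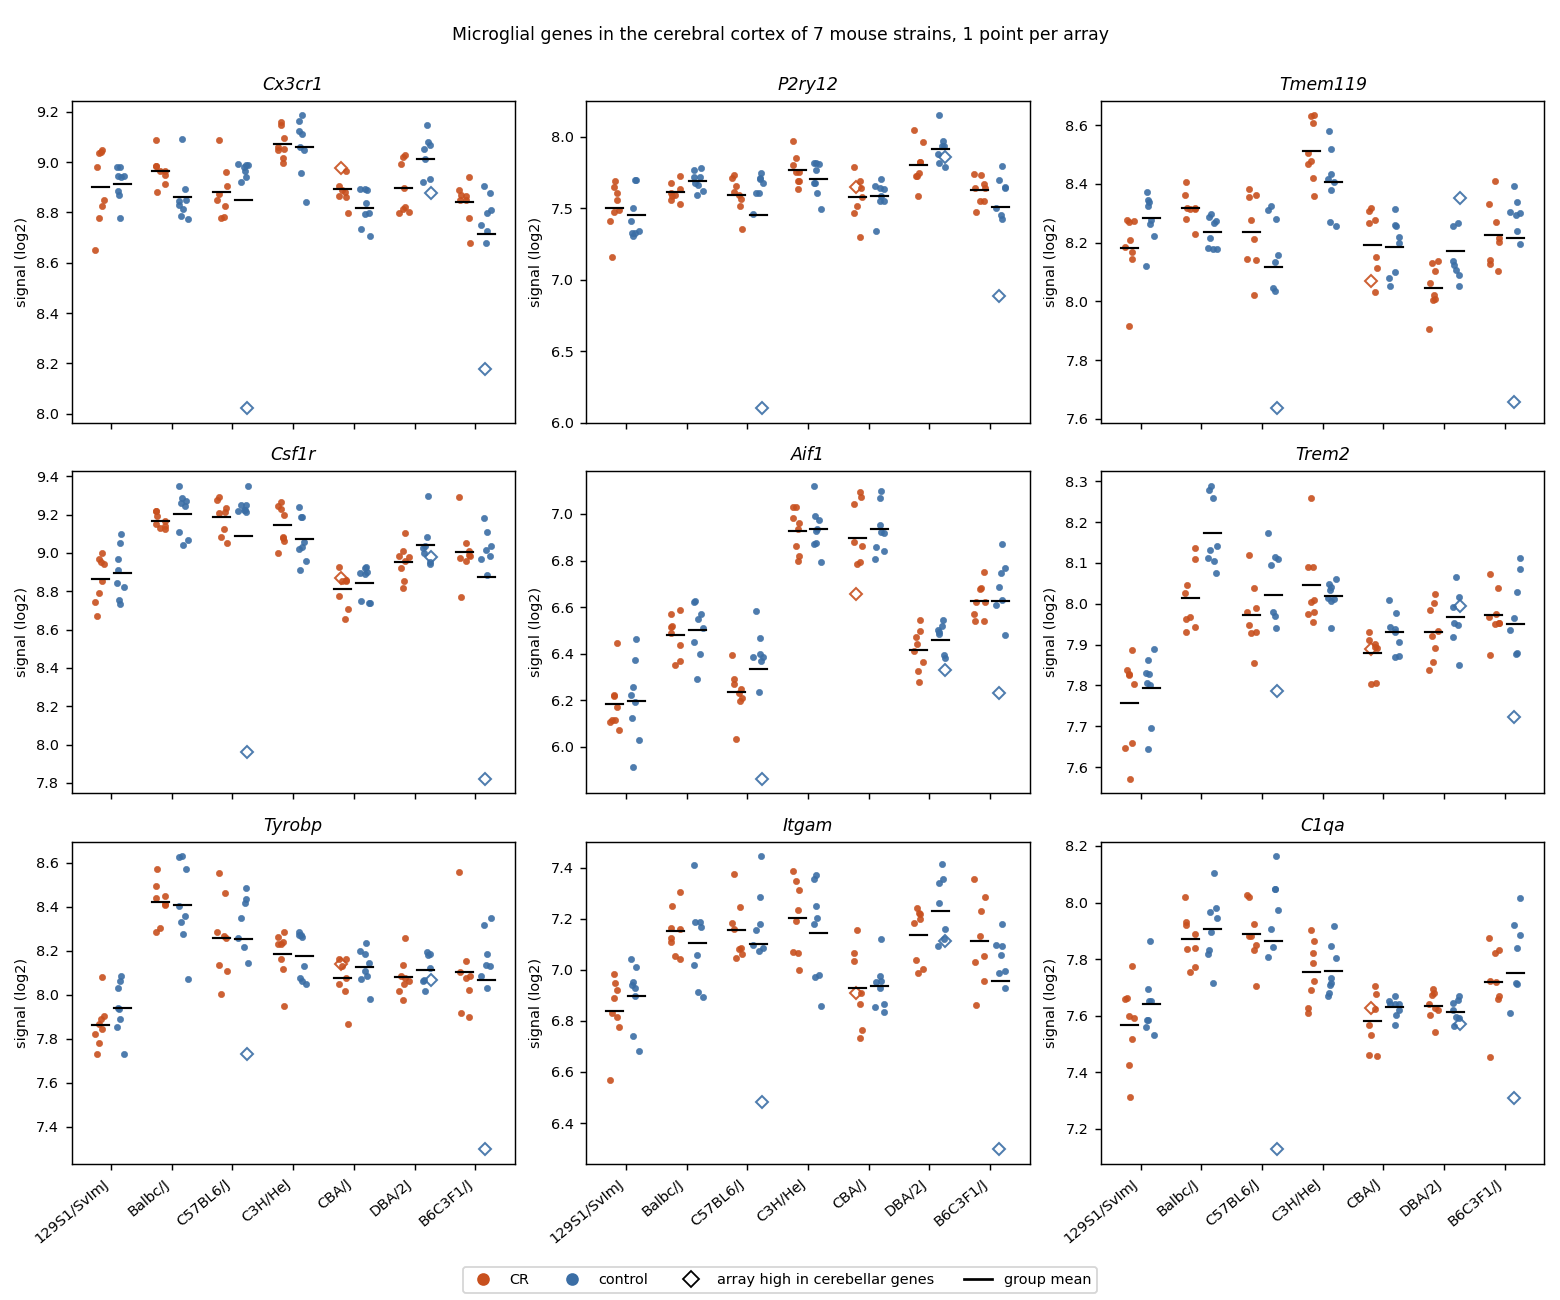
Log2 signal of each of the 9 genes (y axis, 1 panel per gene) on each array, by strain (x axis), with CR mice to the left of control mice, black bars for group means (n = 8) and open diamonds for the 4 arrays high in cerebellar genes. The diamonds of C57BL6/J and B6C3F1/J control mice lie below all other mice of their group in each panel.

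No change of the 9 genes under CR passed the test across strains. Limma's moderated test on the mean of the 7 within-strain differences, with Benjamini-Hochberg adjustment over all genes, called 0 of 9, against 2.34% of the 19938 genes tested. At an unadjusted p under 0.05, 1 of the 9 passed, against 14.3% of all genes. Of the 9, 5 had a higher mean in CR mice and 4 a lower one, and 1.17% of all genes were called in each direction. The intervals were narrow, the widest reaching a loss of 5.42% for Aif1 and a gain of 7.12% for P2ry12. In whole cortex, fewer microglia and less RNA per microglial cell cannot be told apart.

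Trem2 came closest. Its signal averaged 7.94 in CR mice and 7.98 in control mice, a difference of -0.040 ± 0.016 (SE, n = 56 each, or -2.76%, 95% CI -4.93% to -0.54%), with a limma p of 0.0154 and an adjusted p of 0.201. The means were lower in CR mice of 5 of the 7 strains. Balbc/J weighed most in it, since the difference over the other 6 strains was -0.021 with an adjusted limma p of 0.719. Aif1 averaged 6.54 in CR mice and 6.57 in control mice, and although its mean was lower in CR mice of all 7 strains, the difference of -0.032 ± 0.024 had an adjusted p of 0.613 by limma. Tmem119, the marker of microglial identity, averaged 8.24 in CR mice and 8.23 in control mice. The 3 receptors gave small positive differences, of 0.031 ± 0.026 for Cx3cr1, 0.025 ± 0.037 for P2ry12 and 0.016 ± 0.036 for Csf1r, none past the test. Tyrobp, the adaptor of Trem2, gave -0.014 ± 0.030, the integrin chain Itgam 0.022 ± 0.031 and the complement chain C1qa -0.021 ± 0.026.

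Without the 4 arrays all 9 differences were below 0, between -0.050 for Trem2 and -0.00084 for Cx3cr1. Trem2 then passed the test, at -0.050 ± 0.016 and an adjusted limma p of 0.0466, so 1 of 9 genes was called, against 4.39% of all genes. Without only the first pair of arrays, its adjusted p was 0.0393. C1qa and Aif1 had unadjusted p-values of 0.0223 and 0.0272 without the 4 arrays, with adjusted p-values of 0.193 and 0.213 by limma. The median over the 9 was -0.031 without them and 0.014 with them, while that over all genes was 0.00031 and 0.00054. The direction of 5 of the 9 genes thus rests on these arrays, and the call of Trem2 passes or fails with them.

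**Figure D2:**
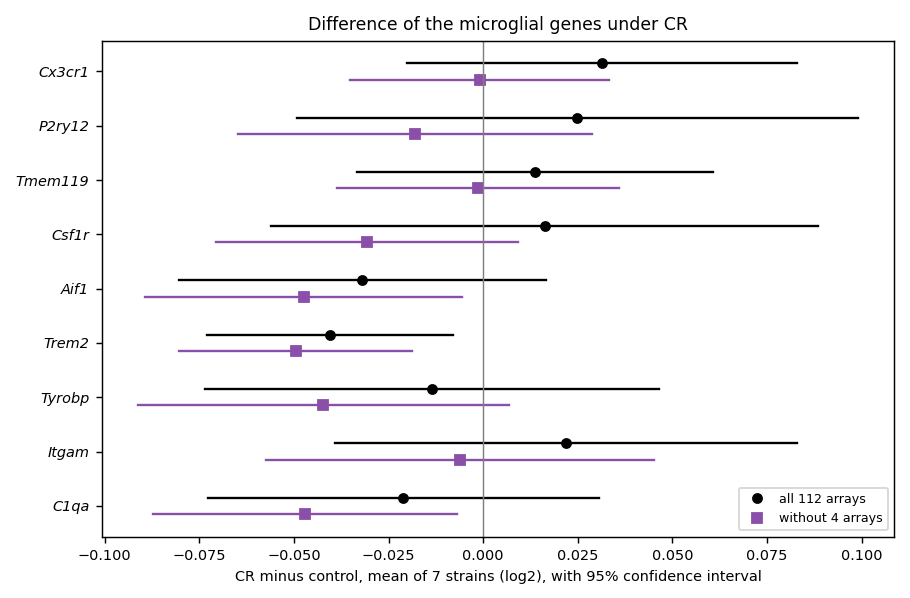
CR minus control as the mean of 7 strains (x axis, log2) for each gene, with 95% confidence intervals, from all 112 arrays (black circles) and without the 4 arrays high in cerebellar genes (purple squares). Trem2 is the only gene whose interval leaves out 0 in the 112 arrays, and each square lies to the left of its circle.

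Within single strains, 0 of 63 tests of a member were called, against 0% of all genes in Balbc/J, C3H/HeJ, DBA/2J and B6C3F1/J, 0.00502% in 129S1/SvImJ, 0.0853% in C57BL6/J and 0.1% in CBA/J. The methods' t-test passed 2 of the 63 at their threshold of 0.01 on linear and on log2 signal, against 1.74% and 1.75% of all tests, and 0 after adjustment. The lowest p belonged to Trem2 in Balbc/J mice. There Trem2 ran from 7.93 over a median of 8.00 to 8.14 in CR mice, and from 8.08 over 8.14 to 8.29 in control mice. Of the 8 CR mice, 6 lay under every control mouse, though the ranges overlapped. The difference was -0.158 ± 0.043 (SE), or -10.4% with a 95% CI of -15.6% to -4.89%, with a limma p of 0.000416 and an adjusted p of 0.222. The other of the 2 that passed the methods' threshold was Tmem119 in Balbc/J mice, where it was higher under CR. The difference was 0.083 ± 0.063 (SE), with a limma p of 0.189 and an adjusted p of 0.916. There 6 CR mice lay above every control mouse. Without the 4 arrays, none of them from Balbc/J, the differences of Trem2 and Tmem119 in Balbc/J stayed the same. The limma p-values were then 0.000157 and 0.0917, with adjusted p-values of 0.108 and 0.670. Tmem119 in DBA/2J mice did not pass the methods' threshold and was lower under CR. It ran from 7.90 over 8.04 to 8.14 under CR and from 8.05 over 8.13 to 8.35 on the control diet. It differed by -0.126 ± 0.063, with a limma p of 0.0469 and an adjusted p of 0.879. Without the 4 arrays, which include a DBA/2J control mouse, it differed by -0.101 (limma p of 0.0485, adjusted p of 0.694).

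The strains did not share a direction. With all arrays, 7 of the 9 genes were higher in CR mice of C57BL6/J, C3H/HeJ and B6C3F1/J, and 1 in 129S1/SvImJ and DBA/2J. Balbc/J had 4 and CBA/J 2. With the 4 arrays left out, C57BL6/J had 1 gene higher and B6C3F1/J 3, C3H/HeJ kept 7, and the other 4 strains kept their counts. Aif1 in C57BL6/J mice was then the lowest, at -0.170 with an unadjusted limma p of 0.00352 and an adjusted p of 0.132. The moderated F test of the strain by diet interaction called none of the 9, against 0.0401% of all genes, and 1 of 9 had an unadjusted p under 0.05, against 6.11% of all genes. That was Tmem119, with a p of 0.0299 and an adjusted p of 0.767. Its differences ran from -0.126 in DBA/2J to 0.121 in C57BL6/J, where the cerebellar array is a control mouse, and without the 4 arrays the value in C57BL6/J was 0.053. Without them 2 of 9 had an unadjusted p under 0.05, against 8.39% of all genes: Cx3cr1 at 0.0042 (0.215 with all arrays) and Tmem119 at 0.0065, with adjusted p-values of 0.330 and 0.395 by limma.

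**Figure D3:**
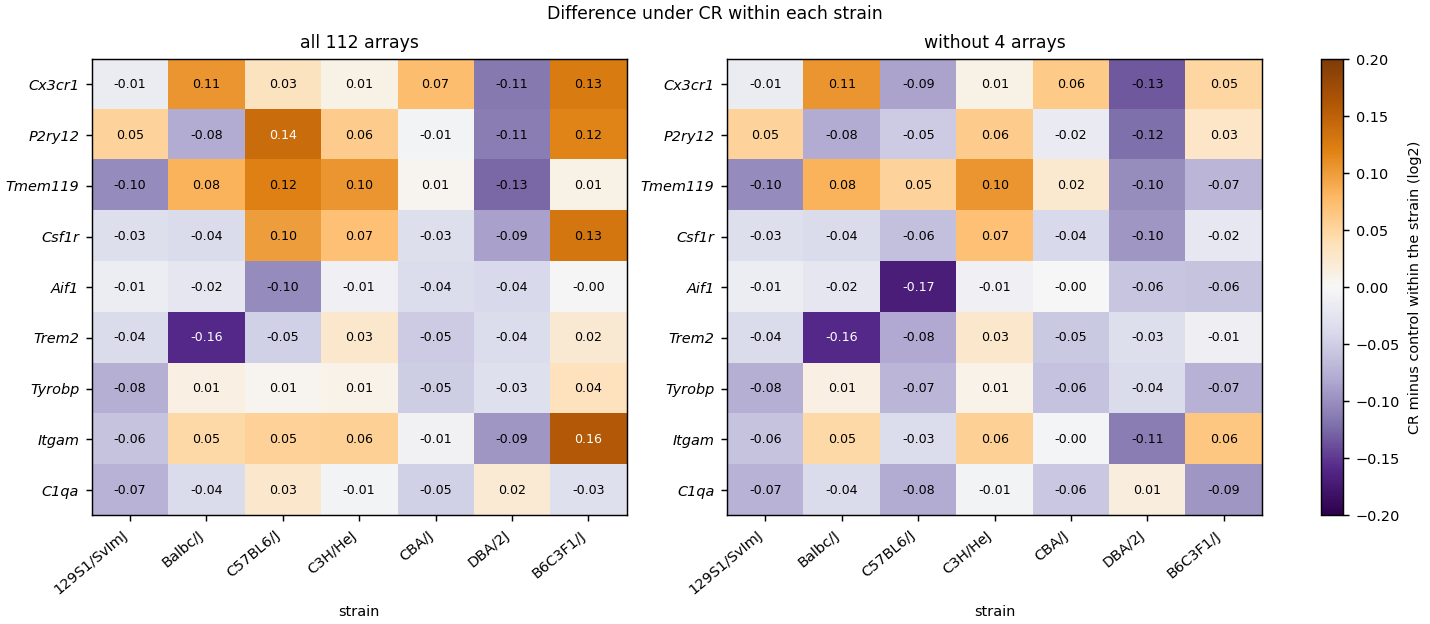
CR minus control within each strain (colour and printed value, log2) for the 9 genes (rows) and 7 strains (columns), from all arrays at the left and without the 4 arrays high in cerebellar genes at the right. The columns of C57BL6/J and B6C3F1/J change most between the panels, and no value passed the test in either.

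Strain was the larger source of variation. Among control mice limma's F test over the 7 strains called 9 of 9 genes, against 65.4% of all genes. Among CR mice it called 7 of 9, against 56.8%, and the 2 that missed were Cx3cr1 at an adjusted p of 0.0522 and P2ry12 at 0.0627. Both passed without the 4 arrays, at 8.37e-05 and 4.79e-05, a set of arrays for which the share of all genes called in CR mice is not given here. With both diets joined 9 of 9 were called, against 79.7% of all genes. Strain took from 27.5% of the variance between arrays for Cx3cr1 to 82.5% for Aif1, while diet took at most 2.5%, for Trem2. Over all genes the median share of strain was 23.6%. The probes were designed on a reference genome, so a base that differs between strains under a probe and a difference in RNA cannot be told apart here.

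Aif1 had the widest spread, with 0.741 log2 units between the highest and the lowest strain (1.67-fold), ranked 311 of the 19938 genes by the F test in control mice. In CR mice its medians were 6.95 in C3H/HeJ and 6.87 in CBA/J, 6.62 in B6C3F1/J, 6.50 in Balbc/J, 6.43 in DBA/2J, 6.24 in C57BL6/J and 6.14 in 129S1/SvImJ. In control mice they were 6.93, 6.92, 6.66, 6.53, 6.49, 6.39 and 6.21, in the same strain order. All 32 arrays of C3H/HeJ and CBA/J, from 6.66 to 7.12, lay above all 64 of Balbc/J, DBA/2J, C57BL6/J and 129S1/SvImJ, from 5.86 to 6.63. The hybrid, from 6.23 to 6.87, overlapped each of these sets. The sets were formed after the values were seen, and the share of all genes split in this way was not worked out. Of the 21 pairs of strains 18 differed past the adjusted threshold, against 35.1% of tests over all genes and pairs. The pairs that did not were C3H/HeJ with CBA/J (0.016 ± 0.046), Balbc/J with DBA/2J (0.053 ± 0.046) and C57BL6/J with 129S1/SvImJ (0.095 ± 0.046, adjusted p = 0.0616 by limma). Aif1 lies at chr17:35170986-35176083 (GRCm38.p6), in the class III region of the major histocompatibility complex. As background, C3H/HeJ and CBA/J carry the k haplotype of that complex, Balbc/J and DBA/2J the d haplotype, and C57BL6/J and 129S1/SvImJ the b haplotype, a grouping set beside the values after they were seen. Its part in the signal was not tested.

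129S1/SvImJ had the lowest mean of 6 of the 9 genes: P2ry12, Aif1, Trem2, Tyrobp, Itgam and C1qa, though for C1qa it lay only 0.00066 under CBA/J. Set against the mean of the other 6 strains over both diets, 7 of the 9 were called lower in 129S1/SvImJ and 0 higher, against 27.4% of all genes lower and 27% higher. Beside Aif1 at -0.424 ± 0.035 these were Tyrobp at -0.287 ± 0.043, Itgam at -0.227 ± 0.044, Trem2 at -0.214 ± 0.023, P2ry12 at -0.175 ± 0.053, Csf1r at -0.152 ± 0.052 and C1qa at -0.143 ± 0.037. Cx3cr1 (0.0021 ± 0.037) and Tmem119 (-0.0068 ± 0.034) did not pass. The count was 7 without the 4 arrays and 6 after a further quantile normalization. Other cell types differed in the same strain. Its means over both diets were the lowest of the 7 strains for lists of astrocyte genes (10.03, against 10.28 in Balbc/J, the highest) and of endothelial and mural genes (8.15, against 8.41 in C57BL6/J), and the highest for 6 choroid plexus genes (8.04, against 7.44 in CBA/J, the lowest) and for excitatory neuron genes. On single 129S1/SvImJ arrays the choroid plexus list ran from 7.14 to 9.02 in CR mice and from 7.16 to 8.53 in control mice. Their part in the microglial values was not tested.

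With all arrays and the diets joined, Balbc/J and C3H/HeJ stood at the upper end, and Trem2 was the gene called higher in both. In Balbc/J, 4 of the 9 were called higher and 0 lower, against 23.1% and 18.9% of all genes: Tyrobp at 0.311 ± 0.043, Csf1r at 0.205 ± 0.052, C1qa at 0.188 ± 0.037 and Trem2 at 0.157 ± 0.023. Aif1 was also called lower there without the 4 arrays, at -0.089 with an adjusted limma p of 0.0107, against 20.3% of all genes. In C3H/HeJ, 5 were called higher and 0 lower, against 11.9% and 7.91%: Aif1 at 0.441 ± 0.035, Tmem119 at 0.259 ± 0.034, Cx3cr1 at 0.188 ± 0.037, Itgam at 0.127 ± 0.044 and Trem2 at 0.085 ± 0.023. P2ry12 and Csf1r joined them without the 4 arrays, with adjusted limma p-values of 0.0128 and 0.0136, against 13.3% of all genes, and Csf1r was then called higher in both strains. With all arrays and the diets apart, Trem2 in C3H/HeJ was called in CR mice (0.124) but not in control mice (0.047, adjusted limma p of 0.492). Itgam in C3H/HeJ was called on neither diet. Csf1r in Balbc/J was called in control mice (0.235) but not in CR mice (0.174, adjusted limma p of 0.0654). The other genes called higher with all arrays were called on each diet. Tmem119 ran from 8.36 over 8.49 to 8.63 in CR mice of C3H/HeJ and from 8.26 over 8.41 to 8.58 in its control mice, the highest median of any strain on each diet. Tyrobp ran from 8.29 over 8.43 to 8.57 in CR mice of Balbc/J and from 8.07 over 8.38 to 8.63 in control mice, while in 129S1/SvImJ it ran from 7.73 over 7.86 to 8.08 under CR and from 7.73 over 7.94 to 8.09 on the control diet. The CR mice of Balbc/J thus did not overlap those of 129S1/SvImJ, while the control mice of these strains did overlap. The share of all genes that set these strains apart in this way was not worked out.

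The other inbred strains were mixed with all arrays, though without the 4 arrays C57BL6/J had more genes called higher than Balbc/J. DBA/2J had the highest mean of P2ry12, called higher at 0.271 ± 0.053, with Itgam at 0.140 ± 0.044, and the lowest of Tmem119, called lower at -0.149 ± 0.034, with Aif1 at -0.136 ± 0.035 and C1qa at -0.120 ± 0.037, that is 2 higher and 3 lower, against 11.4% and 9.51% of all genes. Homeostatic genes that mark the same cells thus lay at opposite ends in this strain with the diets joined. With the diets apart, each end was called in 1 diet only. P2ry12 was called in control mice (0.350) but not in CR mice (0.191, adjusted limma p of 0.0899). Tmem119 was called in CR mice (-0.231) but not in control mice (-0.068, adjusted limma p of 0.467). CBA/J had 1 gene called higher (Aif1, 0.422 ± 0.035) and 4 lower, led by Csf1r at -0.213 ± 0.052 and Itgam at -0.154 ± 0.044, against 17.3% and 15.1% of all genes, and without the 4 arrays 6 lower, against 16.9%. C57BL6/J had Csf1r (0.146 ± 0.052), Tyrobp (0.127 ± 0.043) and C1qa (0.175 ± 0.037) called higher and Aif1 and P2ry12 lower, against 21.9% and 34.3% of all genes. P2ry12 was no longer called there without the 4 arrays, at -0.034 with an adjusted limma p of 0.379, and Trem2 and Itgam were then called higher, which made 5 higher and 1 lower, against 24% and 38.3% of all genes. B6C3F1/J had 0 called higher and 1 lower (Cx3cr1, -0.149 ± 0.037), against 8.33% and 11.8% of all genes. Without the 4 arrays, of which 1 is a mouse of this hybrid, Aif1 was called higher too, at 0.103 with an adjusted limma p of 0.0074, against 9.15%.

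**Figure D4:**
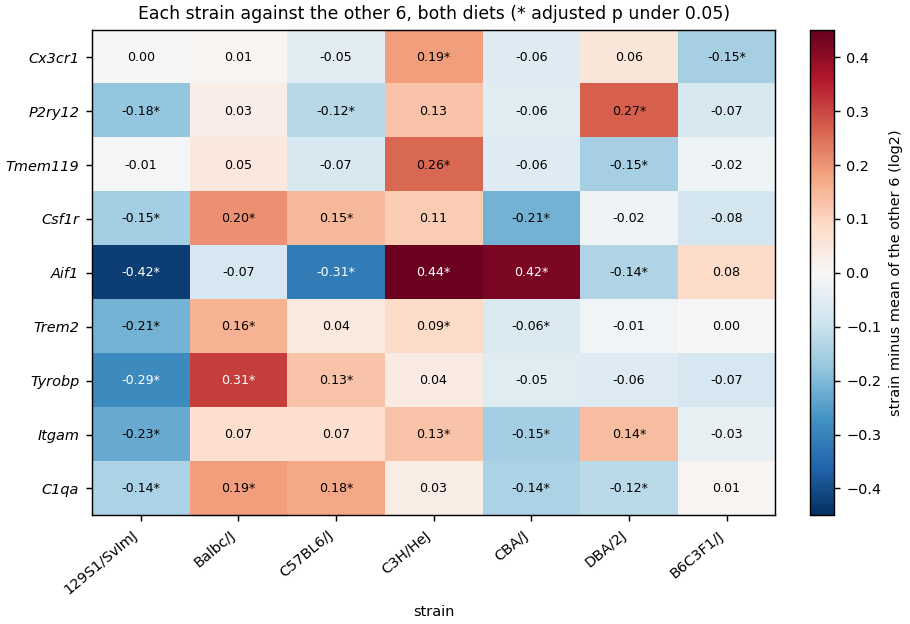
Each strain minus the mean of the other 6 strains over both diets (colour and printed value, log2) for the 9 genes (rows), with an asterisk where limma's adjusted p was under 0.05 (n = 16 mice per strain, all arrays). The 129S1/SvImJ column holds 7 values called lower and the C3H/HeJ column 5 called higher, and the Aif1 row runs from -0.42 to 0.44.

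The order of neighbouring strains was seldom resolved outside Aif1. Cx3cr1 ran from 9.07 in C3H/HeJ over 8.95 in DBA/2J, 8.91 in Balbc/J and in 129S1/SvImJ, 8.87 in C57BL6/J and 8.86 in CBA/J to 8.78 in B6C3F1/J, with no step between neighbours past the test and 8 of 21 pairs called. P2ry12, Tmem119 and Csf1r had 8, 8 and 9 of 21 pairs called, and of their steps between neighbours the 0.183 ± 0.044 of Tmem119 between C3H/HeJ and Balbc/J passed (adjusted p = 0.000718 by limma). Trem2 fell off at its lower end, with 7.78 in 129S1/SvImJ against 7.90 in CBA/J, the next strain. Tyrobp was set apart at each end, by 0.157 ± 0.057 between Balbc/J and C57BL6/J and by 0.182 ± 0.057 between B6C3F1/J and 129S1/SvImJ. For C1qa, Balbc/J (7.89) and C57BL6/J (7.88) stood together above C3H/HeJ (7.76), the step from C57BL6/J having an adjusted p of 0.0444 by limma.

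C1qa was compared with the genes of the other C1q chains, C1qb and C1qc, which are encoded beside it and assembled with it. C1qa was lower in 129S1/SvImJ (7.60 ± 0.13, SD, n = 16) than in Balbc/J (7.89 ± 0.10). C1qc went the other way in 129S1/SvImJ, which had its highest mean, 8.64 ± 0.16, called higher than the other 6 strains by 0.505 (adjusted p = 1.51e-14 by limma). C1qb in 129S1/SvImJ was -0.058 from the other 6, which did not pass. In CBA/J all 3 chains were called lower, C1qa by -0.142, C1qb by -0.323 and C1qc by -0.670, and in Balbc/J C1qa and C1qb were called higher.

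The hybrid was set against the mean of its parental strains over both diets. It was below that mean for 8 of the 9 genes, and the test called 4, all lower, against 31.9% of all genes called in either direction. Cx3cr1 averaged 8.78 in B6C3F1/J, against 8.87 in C57BL6/J and 9.07 in C3H/HeJ, and differed from their mean by -0.189 ± 0.042 (SE, -12.3%, adjusted p = 0.000187 by limma). Its mean lay under that of each parent, as did Csf1r (-0.182 ± 0.059) and Tyrobp (-0.135 ± 0.049). Against the nearer parent none passed, with adjusted limma p-values of 0.129 (Cx3cr1, C57BL6/J), 0.0670 (Csf1r, C3H/HeJ) and 0.249 (Tyrobp, C3H/HeJ). Tmem119 (-0.098 ± 0.038) lay between the parents, but in CR mice its 8.22 lay under C57BL6/J (8.24) and C3H/HeJ (8.51). With the diets apart, the test against the parental mean called only Tmem119 in CR mice and only Cx3cr1 in control mice (adjusted limma p of 0.0417 and 0.0021). Without the 4 arrays, of which 1 is a hybrid and 1 a C57BL6/J mouse, the same 4 genes were called, with -0.180 for Cx3cr1, -0.147 for Csf1r, -0.098 for Tyrobp and -0.075 for Tmem119. Aif1 was intermediate, at 6.63 in the hybrid, against 6.29 in C57BL6/J and 6.93 in C3H/HeJ, with a difference from their mean of 0.018 ± 0.040.

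Other genes of these pathways were read from fixed lists, as counts. Over all genes tested, 65.4% were called for strain in control mice. For CR the share was 2.34% with all arrays and 4.39% without the 4. Of 15 other homeostatic microglial genes measured, 0 were called for CR with all arrays and 14 (93.3%) for strain in control mice. Lyz2 (lysozyme) had the lowest CR p among them, at -0.103 ± 0.039 with an adjusted limma p of 0.154, and Fcrls, a gene typical of mouse microglia, was called lower without the 4 arrays, at -0.111 with an adjusted p of 0.0233. Strain ranges in control mice were wide for Fcrls (7.63 in C57BL6/J, 6.21 in 129S1/SvImJ), Lyz2 (7.60 in Balbc/J, 6.50 in 129S1/SvImJ) and Olfml3 (9.24 in DBA/2J, 8.31 in CBA/J). Among 7 genes of ligands, 0 were called for CR and 5 (71.4%) for strain, near the share of all genes. The lipid carriers Apoe (-0.069) and Clu (-0.066), which Trem2 can bind, were called lower in CR mice without the 4 arrays. Il34, a ligand of Csf1r, ranged from 8.72 in Balbc/J to 8.26 in B6C3F1/J control mice.

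Of 11 genes of Trem2, Tyrobp and Fc receptor signalling 0 were called for CR and 8 (72.7%) for strain, and of 10 complement and integrin partners 0 and 5 (50%). Over all genes these shares were 2.34% for CR with all arrays and 65.4% for strain in control mice. Of 12 lysosomal genes 1 (8.33%) was called for CR: Lamp1, a lysosomal membrane protein, was lower in CR mice by -0.052 ± 0.013 (adjusted p = 0.0160 by limma, 0.0271 without the 4 arrays). All 12 differed between strains. Ctsd, the protease cathepsin D, ranged from 11.01 in C57BL6/J to 10.40 in 129S1/SvImJ control mice. Of 17 disease-associated microglial genes and 16 inflammatory genes 0 were called for CR with all arrays. For strain 12 (70.6%) and 10 (62.5%) were called, near the share of all genes. Without the 4 arrays 1 of the 17 was called lower in CR mice. In these lists the lowest CR p-values with all arrays belonged to Fth1, the heavy chain of ferritin, at 0.043 (adjusted p = 0.0939 by limma), and to the cytokine gene Il18, at 0.119 (adjusted p = 0.123). Of 7 myeloid transcription factors 0 were called for CR and 3 (42.9%) for strain, and Cebpa had the lowest CR p, at -0.040 with an adjusted p of 0.370. Lamp1, Apoe, Clu and Ctsd are also made by other brain cells.

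Markers of other immune cells did not pass for CR either. Among 10 border macrophage, 9 monocyte and neutrophil and 9 lymphocyte genes 0 were called, and 2, 3 and 3 differed between strains, fewer in share than the 65.4% of all genes. The border macrophage list averaged 6.00 in CR mice and 5.99 in control mice, and 5.94 to 6.06 between strains. Of 10 astrocyte genes Gja1 and S1pr1 were called higher in CR mice, with 0.096 ± 0.016 and 0.099 ± 0.017, each in all 7 strains. Over all genes 1.17% were called higher. The rest of the astrocyte list did not follow: 4 of the 10 had a positive difference, the median was -0.0087, and 1 was called lower without the 4 arrays. Of 10 endothelial and mural genes 2 had a positive difference. The 1 called higher in CR mice was Tek, a receptor of angiopoietins, at 0.086 ± 0.025 and an adjusted limma p of 0.0443. Its adjusted p was 0.0667 without the 4 arrays, and 3 other genes of that list were called lower, among them the VEGF receptor gene Flt1 at -0.070. Opalin, a gene of myelinating oligodendrocytes, was also called lower without them, at -0.234 with an adjusted limma p of 0.0035. It was the 1 gene called of 9 oligodendrocyte genes, of which 6 had a positive difference with all arrays. Of 9 excitatory neuron genes 1 was called lower without the 4 arrays, Camk2a at -0.043 with an adjusted limma p of 0.0455. Over all genes 4.39% were then called in either direction.

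Whether the 9 genes varied together from mouse to mouse was described by correlating deviations from group means, which share the array and its normalization. Over 112 arrays all 36 pairs were positive, with a median Pearson r of 0.54 (Spearman 0.30) and the highest for P2ry12 with Csf1r, at 0.84. Without the 4 arrays 31 of 36 were positive, with a median of 0.23 and the highest for Csf1r with Tyrobp, at 0.65. The receptor Trem2 and its adaptor Tyrobp had an r of 0.34 over 112 arrays and of 0.12 without the 4. Over the 14 group means of all arrays, this pair had the highest Pearson r of the 36, at 0.88. Its Spearman value of 0.85 there lay below those of Csf1r with C1qa and Csf1r with Trem2, 0.87 each. The group means hold the differences between strains, which the deviations leave out.

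**Figure D5:**
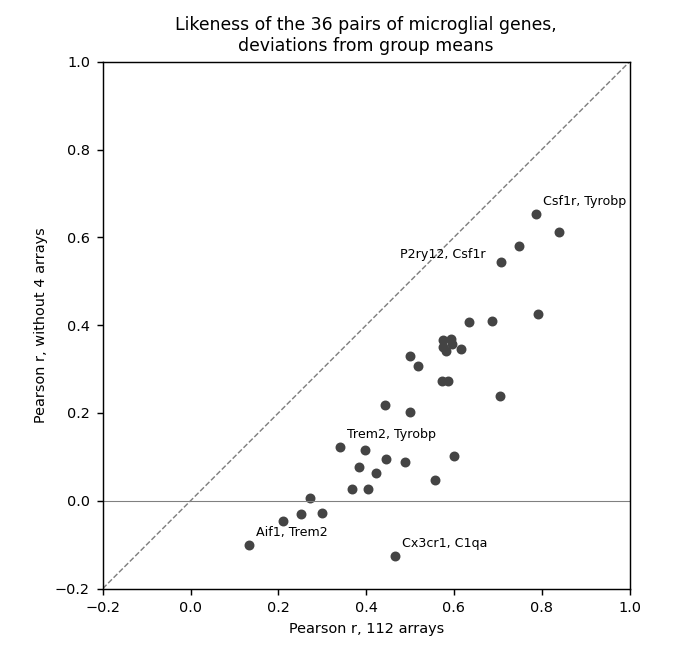
Pearson r of each of the 36 pairs of genes from 112 arrays (x axis) and without the 4 high in cerebellar genes (y axis), computed on deviations from group means, with the dashed line marking equal values. All points lie below the line, and 5 lie below 0 on the y axis.

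The genes whose deviations most resembled the mean of the 9 over 112 arrays were Camkv (r = 0.92), Tmem179 (0.91), Kcnj4 (0.91), Cracdl (0.91), Grm5, Slc24a4, Ppp1r1a and Agap2 (0.90 each), several of which are neuronal genes of the forebrain. Without the 4 arrays they were Cd68 (0.73), a lysosomal protein of macrophages, Rps29 (0.72), Actn1, Slc44a2, Gpx1, Gpam, Camkv and Pld4 (0.68). Camkv stood on both lists. Of single genes, Tyrobp was most like Cd68 in either set of arrays, at 0.78 and 0.68, and Csf1r without the 4 arrays was most like Itm2a, at 0.76.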

How the data were processed

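The authors deposited log2 signals of Affymetrix Mouse Gene 1.0 ST arrays, 1 per mouse, made with Affymetrix Expression Console by gene-level RMA-Sketch (background correction, quantile normalization and summary per probe set). Versions, and whether all arrays were normalized together, are facts not given in the sources used here. The method gives arrays a common distribution, so a shift of all genes would not be seen. The medians of the arrays ran from 7.14 to 7.26, and the number of arrays limits the precision.

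Of 35556 probe sets, 21789 had 1 gene symbol, 1621 several and 12146 none, which left 19938 genes after the probe set of highest mean was kept. Itgam also has 3 probe sets that share a symbol with another gene, which were not used. No filter on low signal was applied. Limma 3.58.1 in R 4.3.3 fitted a mean for each of the 14 groups (lmFit and eBayes, two-sided, with 4.62 prior degrees of freedom beside 98 residual ones). CR across strains was the mean of the 7 differences, CR minus control. The interaction and strain effects used moderated F tests. A call is an adjusted p under 0.05, by Benjamini and Hochberg's method over all genes. Replicates were separate mice. The script was tested on simulated data. The value table was loaded through data.table, version 1.17.8. Plots used matplotlib 3.10.9 and numpy 2.4.6 under Python 3.11.15.

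All 9 genes are named. From each other list, the genes that could be named were those called, by smallest p and at most 4 per test, or where none was called the gene of smallest p, and of these only some are printed, picked after their values were seen. The 8 genes most like the 9 are named. The strains in which a gene is described were picked after its values were seen. The 9 genes, the lists and the tests were chosen with earlier results of these data known.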

Additional observations from a re-analysis of the deposited data

Results flagged for a closer look

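A mouse far from the other 7 of its group, by Dixon's ratio of its gap to the group's range, was found 21 times in 126 tests of a gene in a group, where chance gives about 1 in 20. Of the 21, 13 fell on 2 arrays high in cerebellar genes, and all 13 were the lowest of their group.

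C57BL6/J control replicate 6 stood apart for Cx3cr1 (8.02), P2ry12 (6.10), Tmem119 (7.64), Csf1r (7.96), Tyrobp (7.73), Itgam (6.48) and C1qa (7.13), all in log2 signal. B6C3F1/J control replicate 8 stood apart for Cx3cr1 (8.18), P2ry12 (6.89), Tmem119 (7.66), Csf1r (7.82), Tyrobp (7.30) and Itgam (6.30). Which part of the tissue these 2 samples held was not tested beyond the marker lists.

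The other 8 fell on single genes. Those on the high side were Cx3cr1 in Balbc/J control replicate 1 (9.09), Csf1r in DBA/2J control replicate 3 (9.30), Aif1 in 129S1/SvImJ CR replicate 8 (6.44), Trem2 in C3H/HeJ CR replicate 6 (8.26) and Tyrobp in B6C3F1/J CR replicate 3 (8.56). Those on the low side were P2ry12 in CBA/J control replicate 8 (7.34), Tmem119 in 129S1/SvImJ CR replicate 3 (7.92) and Trem2 in C3H/HeJ control replicate 1 (7.94).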

How the results depend on the processing

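Calls among the 9 genes held under most settings. The strain effect in control mice was called for all 9 under each alternative that kept them, and 0 of the 63 tests within strains and 0 interactions were called in any. The filter to genes above the median signal removed Aif1 and Itgam, so they have no value there, and 7 of 7 kept the strain effect. Against the other 6 strains, with each array's median subtracted, Balbc/J had 1 gene called lower in place of 0, B6C3F1/J 1 higher in place of 0, and C57BL6/J 4 higher and 1 lower in place of 3 and 2. For CR across strains, 1 gene (Trem2) was called with array weights (-0.047), without 2 arrays (-0.050) and without 4 arrays (-0.050). The cause was not tested.

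Counts over all genes moved more. For CR across strains, 467 genes were called, against 1193 with array weights, 870 without 2 arrays and 875 without 4 arrays, and 204 without 129S1/SvImJ, 306 without Balbc/J, 175 without CBA/J and 246 without DBA/2J, each a fit on fewer mice. Within strains, 38 calls became 68 after quantile normalization, 69 with the filter on signal, 585 with array weights, 159 without 2 arrays and 147 without 4 arrays. For the interaction 8 became 14 with the filter and 33 with array weights, and for strain in control mice 13047 became 8392 with the filter, which tests fewer genes. Of the list genes besides the 9, 4 were called for CR with all arrays and 12 without 4 arrays. The median r among the 9 genes was 0.54, against 0.30 by Spearman, 0.27 without the 2 farthest arrays, 0.21 without 2 arrays and 0.23 without 4.

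Signs reversed only where no value was called. For CR across strains, Cx3cr1 was -0.00084 without 4 arrays. With array weights, with a covariate for each array's spread of relative log expression, without 2 arrays and without 4 arrays, P2ry12 was -0.0071, -0.017, -0.015 and -0.018, Tmem119 -0.0079, -0.0061, -0.0075 and -0.0014, Csf1r -0.024, -0.029, -0.028 and -0.031, and Itgam -0.016, -0.0025, -0.0041 and -0.0061. Tmem119 was -0.0042 without C57BL6/J and -0.0016 without C3H/HeJ, and without B6C3F1/J Csf1r was -0.0027 and Itgam -0.00083. Against the other 6 strains, without 2 and without 4 arrays, Cx3cr1 was -0.014 and -0.015 in 129S1/SvImJ, -0.0078 and -0.0084 in Balbc/J and 0.0065 and 0.0059 in C57BL6/J, Tmem119 in B6C3F1/J 0.014 and 0.014, and Itgam in B6C3F1/J 0.0048 and 0.0031.

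The main tests did not pair mice by replicate number. Whether same-numbered mice shared handling was not tested. Over 56 same-numbered pairs the correlation of deviations ran from -0.48 to 0.37 with a median of 0.11, and 31 were over 0.1. With the replicate block within strain, CR was called within strains for 90 genes in place of 38, no call among the 9 genes changed, and the correlation within blocks was 0.080.

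Log2 signals of whole cortex, with 8 mice a group, were compared with probes made on a reference genome. Signal near background compresses differences, and Aif1 and Itgam lay below the median gene. A detection call or background signal per array was not used here.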
